A study of Homo sapiens with 2 samples.

Results

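ADGRF1, UCN2 and DHRS3 are 3 genes whose transcripts were lower in hypoxic breast cancer cells given compound 1 than in cells given a miR-544 antagomir. They encode an adhesion G protein-coupled receptor, a secreted peptide hormone and a retinal reductase. They were picked by symbol from the 14884 genes with a named transcript cluster on the array because of this difference, so the difference itself is a description and carries no test. Each gene has 1 cluster, and all 3 clusters passed the filter on low levels that kept 10887 genes.

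The cells of both groups were MDA-MB-231, a human breast cancer line in wide use, and each group is represented by 1 Affymetrix array. The series title names an older expression array, but the cluster numbers and the platform table belong to a gene-level whole-transcript design, whose naming is used here. The compound 1 group received compound 1, a small molecule that the study directs at miR-544. The other group received a miR-544 antagomir, an oligonucleotide that binds and blocks that microRNA. Both groups were treated 24 hours before hypoxia at below 1% oxygen for 5 days, and per the series design 3 samples were pooled for the arrays. Arrays of untreated cells or of cells in normal oxygen were not analysed here, so every value below compares the treatments with each other, and treatment cannot be told apart from pool or hybridisation. No genotype change, transgene or second agent is given in the labels.

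The labels name miR-544 with no letter, and RefSeq (GRCh38.p14) lists a mature form for each of 2 genes that carry the number. They are printed because both treatments address this microRNA, with the seed, bases 2 to 8, in capitals. The seeds differ, so the forms would pair with different target sites. The mature form from MIR544A lies at chr14:101048712-101048733 on the plus strand, and that from MIR544B at chr3:124732486-124732507 on the plus strand.
hsa-miR-544a: aUUCUGCAuuuuuagcaaguuc
hsa-miR-544b: aCCUGAGGuugugcauuucuaa

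Adhesion receptors such as ADGRF1, formerly GPR110, carry a long extracellular part that cuts itself next to the membrane and a bundle of membrane helices that signals through G proteins. ADGRF1 is activated by synaptamide, an amide of docosahexaenoic acid, and raises cyclic AMP. UCN2, urocortin 2, belongs to the corticotropin-releasing hormone family and is a selective ligand of the receptor CRHR2, which also couples to cyclic AMP. DHRS3 works elsewhere, in vitamin A metabolism. It turns retinal back into retinol and so withdraws the precursor of retinoic acid, and retinoic acid in turn induces DHRS3.

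The 250 bases before each annotated start site are printed because the genes were lower together and a reader may want to compare what lies upstream. RefSeq (GRCh38.p14) lists 1 start for ADGRF1, 1 for UCN2 and 3 for DHRS3, and all lie on the minus strand. The ADGRF1 window is chr6:47042333-47042582 and the UCN2 window is chr3:48563782-48564031. For DHRS3 the outermost start, window 1 at chr1:12618211-12618460, and the innermost, window 3 at chr1:12596614-12596863, are shown. Window 2 at chr1:12616790-12617039 is not shown, to keep the set short. Capitals mark matches to any of 6 short motifs on either strand.
ADGRF1: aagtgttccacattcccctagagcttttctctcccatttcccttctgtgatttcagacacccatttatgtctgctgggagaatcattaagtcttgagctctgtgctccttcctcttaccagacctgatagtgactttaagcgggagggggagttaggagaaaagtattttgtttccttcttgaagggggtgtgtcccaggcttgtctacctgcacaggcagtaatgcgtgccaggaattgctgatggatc
UCN2: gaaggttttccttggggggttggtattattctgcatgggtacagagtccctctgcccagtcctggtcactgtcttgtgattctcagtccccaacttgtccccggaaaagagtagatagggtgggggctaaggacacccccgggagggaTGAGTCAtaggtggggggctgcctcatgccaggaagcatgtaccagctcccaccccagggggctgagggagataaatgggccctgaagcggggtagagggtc
DHRS3 window 1: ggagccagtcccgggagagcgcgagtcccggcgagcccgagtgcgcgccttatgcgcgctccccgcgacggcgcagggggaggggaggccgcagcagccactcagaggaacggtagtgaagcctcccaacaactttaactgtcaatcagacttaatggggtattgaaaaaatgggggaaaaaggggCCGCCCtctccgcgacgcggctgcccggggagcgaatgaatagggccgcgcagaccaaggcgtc
DHRS3 window 3: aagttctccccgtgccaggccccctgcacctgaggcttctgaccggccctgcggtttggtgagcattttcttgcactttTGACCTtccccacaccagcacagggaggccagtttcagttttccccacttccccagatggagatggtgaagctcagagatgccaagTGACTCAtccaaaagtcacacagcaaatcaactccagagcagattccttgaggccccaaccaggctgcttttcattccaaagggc

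Of the 6 motifs searched, only 1 lay upstream of more than 1 of the 3 genes. Beyond these motifs and base composition the windows were not compared. The 6 motifs, chosen with the differences known, were searched on both strands. The letters ACGTG are a form of the core of a hypoxia response element, at which the hypoxia-inducible factors bind. The form GCGTG was not searched, and it occurs in the printed ADGRF1 window. The letters TGACGTCA are the full cyclic AMP response element, the site of CREB. A nuclear receptor half-site, of the kind that retinoic acid receptors use in pairs, was searched as AGGTCA. An AP-1 site, bound by FOS and JUN proteins, was searched as TGAGTCA. The box named for the letters TATAAA was searched too, as was the GC box, bound by Sp1 and its relatives, with the letters GGGCGG. None of these contains another. The ADGRF1 window held none of the 6. The UCN2 window held the AP-1 letters, which start 102 bases before the start site, and DHRS3 window 3 held them on the opposite strand, from 85 bases before the start. These letters occur in 4.20% of the 35114 RefSeq windows of the same length. DHRS3 window 3 also held the half-site on the opposite strand, from 171 bases before the start (12.1% of all windows hold it), and window 1 held a GC box on the opposite strand, from 64 bases before the start (42.6% of all windows). The letters ACGTG, which 18.5% of all windows hold, were in none of the 5 windows, nor were the cyclic AMP element (1.65%) and the TATA box (10.7%). A match is a run of letters and not a shown binding site, and the lack of a match says only that the letters are not in that window.

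In base composition DHRS3 window 1 had the most G and C and the most CpG of these windows, and ADGRF1 the least of both. The ADGRF1 window was 47.6% G and C with 2 CpG dinucleotides, against a median of 58.0% and 11 CpG over all windows. The UCN2 window was 58.4% G and C with 3 CpG. DHRS3 window 1 was at 65.2% G and C with 26 CpG. Its window 2 was at 58.8% with 10 CpG, and its window 3 at 54.8% with 3 CpG, so ADGRF1, UCN2 and DHRS3 window 3 had nearly equal numbers of CpG.

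The deposited values range from 0.37 to 14.20 on the compound 1 array, and from 0.61 to 14.19 on the antagomir array, with medians of 5.62 and 5.59, and are read as log2 signal. A gene entered when its higher value reached a log2 level of 5.60, the 50th percentile of mean levels over 53617 clusters, and is called measured. Across the measured genes 57.2% were lower on the compound 1 array, and the median difference was -0.035. Levels of different genes are not set against each other, because each cluster has its own probes. Of 14 markers of mesenchymal breast cancer cells fixed for the check of the cell line, 7 had a named cluster and 6 were measured, among them AXL (12.77 on the compound 1 array against 12.78 on the antagomir array) and VIM (10.49 against 10.61). S100A4, of the same list, did not reach the entry level (5.21 against 5.17). Neither did the oestrogen receptor gene ESR1 (5.21 against 5.31) and the progesterone receptor gene PGR (4.77 against 4.77). Yet 10 of the 13 luminal markers with a cluster were measured, among them CLDN7 (9.77 against 9.93) and KRT19 (8.78 against 9.04). Markers of leukocytes, of endothelium, of fibroblasts and adipocytes, and of erythroid and kidney cells had 16 named clusters, 9 of them measured. The medians of these 4 lists lay between 4.45 and 6.36 on the compound 1 array, and between 4.61 and 6.41 on the antagomir array. CD68, a macrophage marker that other cells can also express, had a signal of 11.59 against 11.60, which the medians do not show. The part of such cells in the results was not tested.

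ADGRF1, the receptor gene, had the lowest difference of the measured protein-coding genes. Its cluster, 17019778, had a log2 level of 8.19 on the compound 1 array against 9.09 on the antagomir array. The difference of -0.90 corresponds to 53.7% of the antagomir signal, or a 1.86-fold lower level. Both values stood well above the entry level, the lower of them by 2.59.

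UCN2 was measured by cluster 16953454, with a log2 level of 6.57 on the compound 1 array against 7.37 on the antagomir array. This is a difference of -0.80, or 57.6% of the antagomir signal (1.74-fold lower). The compound 1 value was 0.98 above the entry level, so both values passed it. That level is a percentile of signal and no call of presence, and how far the signal is transcript was not tested.

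DHRS3, on cluster 16681827, had a log2 level of 6.12 on the compound 1 array against 6.92 on the antagomir array. The difference was -0.80, or 57.3% of the antagomir signal (1.75-fold lower). It was the member closest to the entry level, with the compound 1 value 0.52 above it. Here too, how far the signal is transcript was not tested. In RNA from a whole culture, fewer cells with the transcript and less transcript per cell cannot be told apart for any of the 3 genes.

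**Figure D1:**
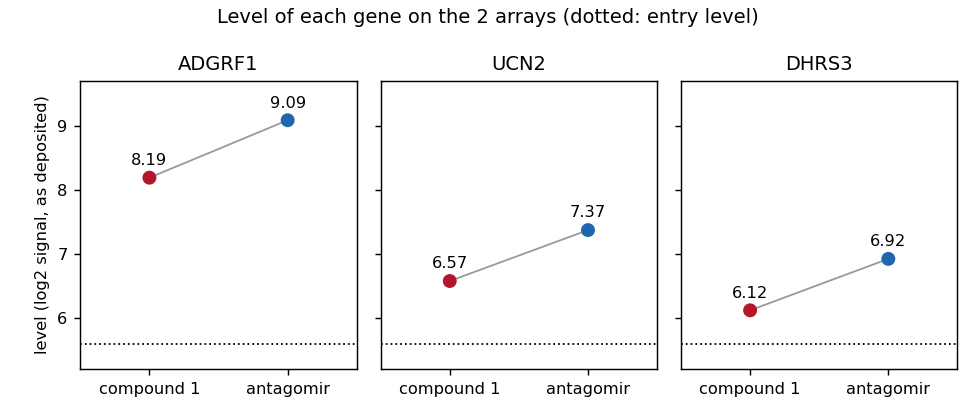
Level of ADGRF1, UCN2 and DHRS3 in log2 signal as deposited, with the compound 1 array on the left and the antagomir array on the right of each panel, 1 array per treatment, and the entry level of 5.60 as a dotted line. Each gene is lower on the compound 1 array, and all 6 points lie above the entry level.

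The size of these differences was read against the spread of genes at a like level, since single arrays give no replicate error. For each gene the 500 measured genes closest in mean level were taken, and the robust SD of their differences (from the median absolute deviation) was computed. The robust SD was 0.13 around ADGRF1, 0.18 around UCN2 and 0.20 around DHRS3. ADGRF1 lay 6.15 robust SDs below the median of its 500 genes, UCN2 4.30 and DHRS3 4.17. In each set 0 of the 500 genes had a difference as low. The lowest in the sets were ORAI3 (-0.54) near ADGRF1, METTL18 (-0.75) near UCN2 and ZNF320 (-0.62) near DHRS3. ADGRF1 thus stood farther from genes at its level than UCN2 and DHRS3 did, in a range of signal where genes varied less between the arrays. The 3 genes were picked for low differences, so large distances and counts of 0 follow largely from that choice. These distances describe 2 arrays and say nothing of the spread between cultures.

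Past 1.5-fold lower there were 60 of 10887 measured genes (0.551%), and past 1.5-fold higher 34 (0.312%). This balance depended on the filter: with no filter 135 were lower and 202 higher, and when both values had to reach the entry level 40 were lower and 13 higher. The 3 genes are among the 60 because they were picked from there. Of the 60, 35 are protein-coding, which is 0.365% of 9583. Counting non-coding genes too, ADGRF1 ranked 4 from the lowest, after the pseudogene USP32P1 (-1.17) and the microRNA genes MIR885 (-1.05) and MIR501 (-1.01), DHRS3 ranked 8 and UCN2 ranked 9.

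**Figure D2:**
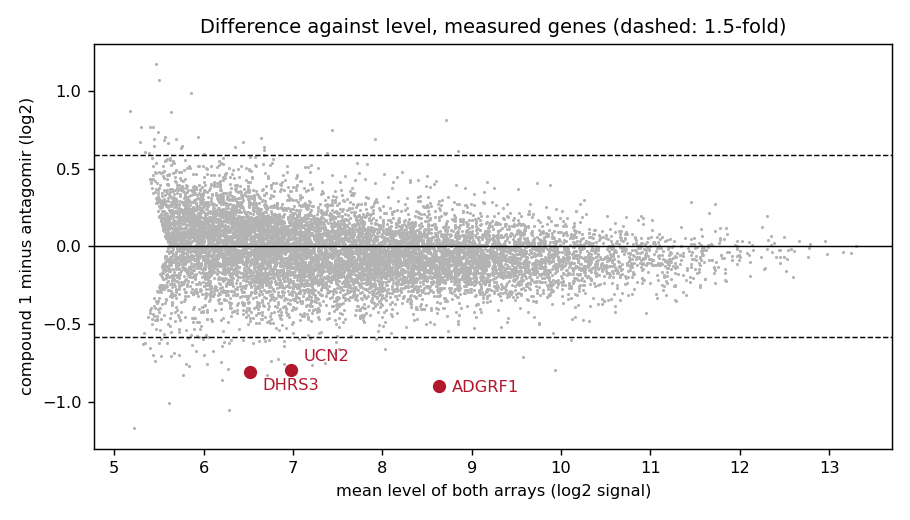
Difference between the arrays (compound 1 minus antagomir, log2) against the mean level of both arrays for the measured genes, with 1.5-fold as dashed lines; 1 gene at a difference of 4.11 lies outside the axis. No gene near the level of ADGRF1, which was picked for its difference, is as low. UCN2 and DHRS3, picked likewise, lie where the cloud of genes is wider.

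Over these arrays a gene's pattern is its single difference, so likeness was taken as the gap in log2 difference among protein-coding genes. TIPIN, which encodes a replication fork protein, stood between ADGRF1 and DHRS3 at -0.82, with a level of 6.30 on the compound 1 array against 7.12 on the antagomir array. The gap from ADGRF1 to TIPIN was 0.074. DHRS3 and UCN2 were next to each other in the ranking with a gap of 0.0083, which is far below the spread at their levels, so their order has no meaning. After UCN2 came DDIT4, an inhibitor of mTOR complex 1, at -0.79 (9.53 on the compound 1 array against 10.32 on the antagomir array), and the zinc finger gene ZNF680, also at -0.79 (5.88 and 6.67). The gaps from UCN2 to these were 0.0038 and 0.0068.

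The relatives of ADGRF1, which were not picked for a difference, differed much less. Of 32 listed adhesion receptors 20 had a named cluster and 13 were measured, 7 of them lower on the compound 1 array and 6 higher, with a median of -0.038 beside -0.035 over all measured genes. Past 1.5-fold lower there was 1, ADGRF1, which was picked for it, against the background of 0.551%. The contrast with its relatives follows largely from that choice. Past 1.5-fold higher there were 0. Without ADGRF1 the other 12 ranged from -0.23 to 0.22, 6 of them lower, with a median of -0.016.

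Within the ADGRF subfamily the closest comparison was ADGRF5, which lies beside ADGRF1 on chromosome 6 and is known for its role in surfactant balance in the lung. ADGRF5 had a log2 level of 11.72 on the compound 1 array against 11.94 on the antagomir array, a difference of -0.22. It lay 1.47 robust SDs below the median of genes at its level, where 47 of 500 were as low. ADGRF4 did not reach the entry level, at 4.45 against 4.84. After ADGRF1 the lowest measured receptor was ADGRA3 (8.13 on the compound 1 array against 8.35 on the antagomir array, -0.23). The highest were ADGRD1 (6.33 and 6.11, a difference of 0.22) and ADGRG6, a receptor needed for myelination by Schwann cells (10.59 and 10.52, a difference of 0.065).

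The ligands and receptors around UCN2 that had a named cluster differed little or had low signal. Of 9 listed genes of the corticotropin-releasing hormone system 8 had a named cluster and 4 were measured. Past 1.5-fold lower there was 1, UCN2, which was picked for it, beside a background of 0.551%, so the count says nothing of the others. UCN, the gene of urocortin 1, had a log2 level of 5.85 on both arrays and a difference of -0.0016. UCN3, the other selective ligand of CRHR2, was at 5.86 on the compound 1 array against 5.67 on the antagomir array (0.19). The receptor gene CRHR2 was at 5.98 and 5.97 (0.010). The median of the 4 was 0.0040, with 2 lower and 2 higher. UCN, UCN3 and CRHR2 all lay close to the entry level, and how far their signal is transcript was not tested.

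The remaining genes of that system with a named cluster did not reach the entry level, and a listed gene without a cluster could not be read. The hormone gene CRH was at 4.63 on the compound 1 array against 4.18 on the antagomir array, and the binding protein gene CRHBP at 5.04 and 5.29. The precursor gene POMC was at 4.93 and 4.80, and the corticotropin receptor gene MC2R at 5.49 and 5.19. No difference is read from levels this low.

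DHRS3 and RDH10 stood at opposite ends of the retinoid genes, a pair singled out after its values were seen. RDH10 oxidises retinol to retinal, the reverse of the step that DHRS3 catalyses, and the enzymes are known to bind and activate each other. RDH10 had a log2 level of 7.53 on the compound 1 array against 7.03 on the antagomir array, a difference of 0.50 (1.42-fold higher). It lay 2.91 robust SDs above the median of genes at its level, with 2 of 500 as high, and did not reach 1.5-fold. DHRS3 minus RDH10 was therefore lower by 1.31 on the compound 1 array, on a log2 scale. Under quantile normalization RDH10 was at 0.54 and DHRS3 at -0.80, and under cyclic loess at 0.53 and -0.82.

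The other retinoid enzymes and carriers lay between them. Of 36 listed 16 had a named cluster and 12 were measured, 3 lower and 9 higher, with a median of 0.016. After scaling the split was more even, with 5 lower and 7 higher under quantile normalization, and 5 and 6 under cyclic loess. Past 1.5-fold lower there was 1, DHRS3 itself, which was picked for its difference, and 0 were past 1.5-fold higher, beside backgrounds of 0.551% and 0.312%. After DHRS3 the lowest was CRABP2, which carries retinoic acid to its nuclear receptors, at 6.87 on the compound 1 array against 7.10 on the antagomir array (-0.23). After RDH10 the highest was the photoreceptor enzyme gene RDH8, at 6.44 and 6.27 (0.17). The retinol uptake receptor gene STRA6, which retinoic acid can induce, was at 6.12 and 5.99 (0.12).

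Genes that respond to retinoic acid did not share the value of DHRS3. Of 28 listed receptors and targets 14 had a named cluster and 11 were measured, 5 lower and 6 higher, with a median of 0.037, and 0.049 without DHRS3. The lowest after DHRS3 was the corepressor gene NRIP1, at 8.97 on the compound 1 array against 9.21 on the antagomir array (-0.24). The highest were the homeobox genes HOXB1, at 6.10 and 5.86 (0.25), and CDX1, at 6.43 and 6.28 (0.15). None of the receptor genes on the list had a named cluster, so the list describes targets.

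In the wider family of short-chain dehydrogenases, 31 of 48 listed genes were measured, 16 lower and 15 higher, with a median of -0.034. Apart from DHRS3 and RDH10 the measured members lay between -0.27 and 0.26. The lowest of these was DHRS11, at 8.53 on the compound 1 array against 8.80 on the antagomir array (-0.27). CBR1, the gene of a carbonyl reductase, was highest after RDH10, at 8.02 and 7.76 (0.26).

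Both ADGRF1 and the receptor of UCN2 act through cyclic AMP, and the genes of that route were read as a list. Of 48 listed 24 had a named cluster and 21 were measured, 14 lower and 7 higher, with a median of -0.061 and 0 past 1.5-fold in either direction, a count that backgrounds of 0.551% lower and 0.312% higher would also give. Of all measured genes 57.2% were lower, with a median of -0.035. After quantile normalization the median of the list was 0.0015, with 9 lower and 12 higher, and that of all measured genes was 0.0048. The lowest were the adenylyl cyclase gene ADCY5 (5.78 on the compound 1 array against 6.07 on the antagomir array, -0.30) and the phosphodiesterase gene PDE7A (6.69 and 6.93, -0.24). The highest were the coactivator gene CREBBP (9.97 and 9.81, 0.17) and the cyclase gene ADCY9 (8.48 and 8.34, 0.13). GNAS, the gene of the stimulatory G protein that links such receptors to the cyclases, was at 7.01 and 7.17 (-0.16).

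Genes that the cyclic AMP factor CREB switches on were mostly at small positive differences. Of 19 listed 13 had a named cluster and 10 were measured, 2 lower and 8 higher, with a median of 0.099. Of all measured genes 57.2% were lower. Under quantile normalization 0 of the list were lower and 10 higher, and under cyclic loess 1 and 9. What lies behind this split was not tested. In the list 1 gene was past 1.5-fold higher against a background of 0.312%. That gene was EGR1, an immediate early transcription factor that other signals induce as well. It was at 9.15 on the compound 1 array against 8.54 on the antagomir array (0.61). FOS was next at 7.08 and 6.93 (0.15). The lowest were the clock gene PER1 (7.94 and 7.98, -0.040) and CREM (6.69 and 6.70, -0.0024). Apart from EGR1 the measured genes of the list thus lay between -0.040 and 0.15.

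**Figure D3:**
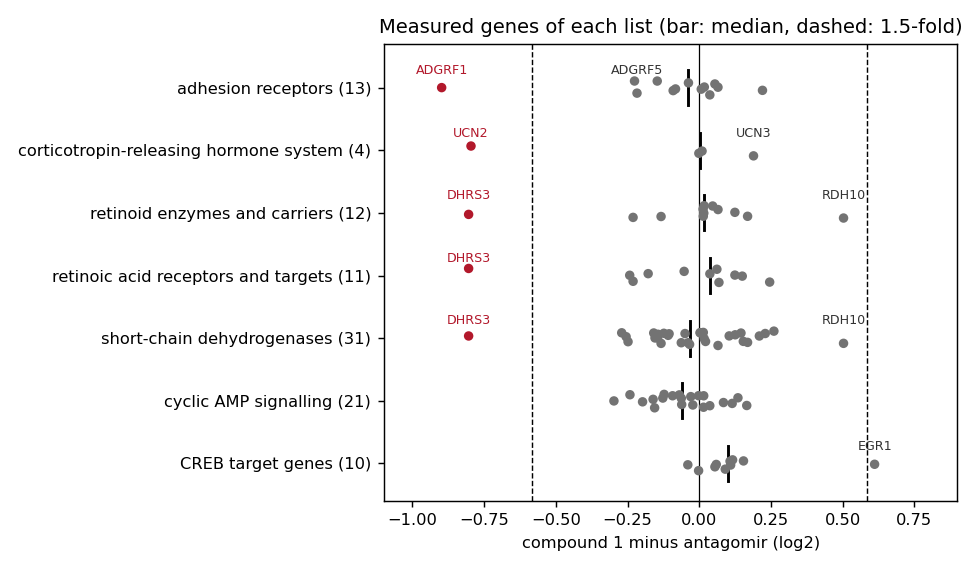
Difference between the arrays (compound 1 minus antagomir, log2) for the measured genes of 7 lists, with the number measured in brackets, the median as a bar and 1.5-fold as dashed lines. ADGRF1 (-0.90), UCN2 (-0.80) and DHRS3 (-0.80), in red, were picked for their differences and so stand apart from the other genes of their lists. RDH10 (0.50) lies on the opposite side of DHRS3.

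The genes beside each member on its chromosome were read to see whether they shared its difference. The 2 nearest genes on either side with a named cluster were taken in RefSeq order, and genes without a named cluster were skipped. Around ADGRF1 on chromosome 6, ADGRF5 was at -0.22 and the actin adaptor gene CD2AP at -0.080 (10.75 on the compound 1 array against 10.83 on the antagomir array), with ANKRD66 and ADGRF4 under the entry level. Around DHRS3 on chromosome 1, the lipid transfer gene VPS13D was at -0.069 (7.12 and 7.19), MIR4632 at 0.048 and AADACL3 at -0.070, with AADACL4 under the entry level. Neither gene had a measured neighbour past 1.5-fold, a count that backgrounds of 0.551% lower and 0.312% higher would also give.

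The measured neighbours of UCN2 on chromosome 3 were all lower, as were 57.2% of all measured genes, and those on 1 side differed more. SHISA5 was at 6.43 on the compound 1 array against 6.87 on the antagomir array (-0.44), and ATRIP, which encodes the partner of the checkpoint kinase ATR, at 6.19 and 6.48 (-0.29). SHISA5 lay 2.10 robust SDs below the median of genes at its level, with 12 of 500 as low. On the other side UQCRC1, a subunit of mitochondrial complex III, was at 9.22 and 9.28 (-0.058), and MIR711 was under the entry level. No neighbour was past 1.5-fold, which the same small backgrounds would also give.

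**Figure D4:**
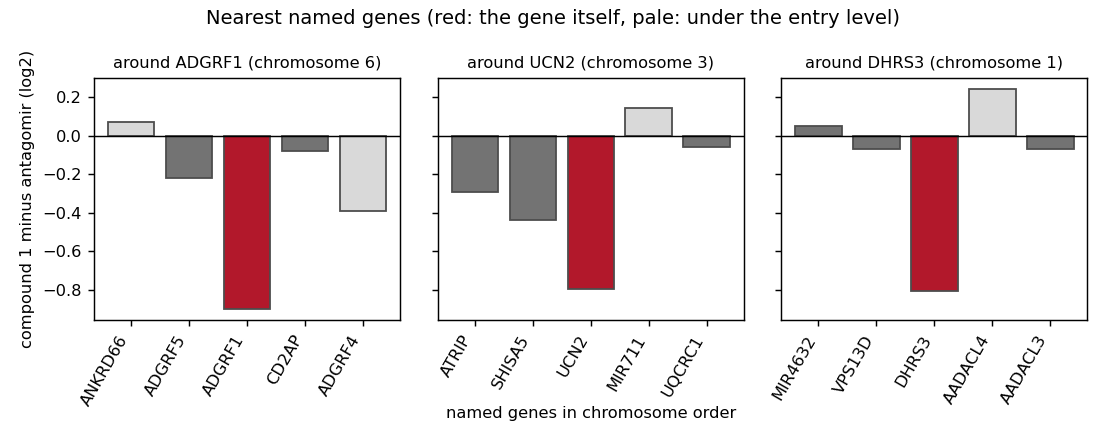
Difference between the arrays (compound 1 minus antagomir, log2) for each gene and its 2 nearest named genes on either side in chromosome order, with the gene itself in red and genes under the entry level in pale grey. UCN2 (-0.80) is flanked on 1 side by SHISA5 (-0.44) and ATRIP (-0.29), while the measured neighbours of ADGRF1 and DHRS3 lie between -0.22 and 0.048.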

How the data were processed

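For each array the deposited file gives every transcript cluster a single value, read as log2 signal from its range. Per the labels, 5 µg of RNA per array went into biotin-labelled cRNA by the Affymetrix protocol, for analysis at gene level. How the authors' log2 values were background-corrected and normalized, their log base and their genome build were not given in the sources used here, and folds assume base 2. Clusters were named through the platform table and RefSeq (GRCh38.p14, names and order only); 16098 of 53617 had a gene. Where a gene had several entering clusters, that of highest mean was used. Differences are compound 1 minus antagomir. With 1 array per treatment no p-value was computed, and the number of arrays limits the precision. The count at 1.5-fold is a description.

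The genes, lists and motifs were chosen with earlier results of these data known. Named genes are the 3 members and all measured genes of the hormone list (those under the entry level are given too). The 2 lowest and 2 highest of each other list are named, as are neighbours in the ranking and on the chromosome. Chosen after their values were seen were ORAI3, METTL18, ZNF320, USP32P1, MIR885, MIR501, STRA6, GNAS and ADGRF4. So were the markers AXL, VIM, S100A4, ESR1, PGR, CLDN7, KRT19 and CD68. The listed retinoid and dehydrogenase genes overlap. Alternatives were centring, quantile normalization, cyclic loess, 3 filters and another cluster choice. For lists that hold any of the 3 genes, the median without them was a further alternative. The recovery of known shifts after the filter was tested on simulated data. Noise there was equal at all levels, and shifts were put only into genes of higher signal. The spread at like level, the lists, the scaling and low signal were thus not covered by that test. Scaling used limma 3.58.1 in R 4.3.3; all else ran in Python 3.11.15 (pandas 2.3.3, numpy 2.4.6, matplotlib 3.10.9).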

Additional observations from a re-analysis of the deposited data

How the results depend on the processing

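The differences of ADGRF1, UCN2 and DHRS3 kept their sign after centring, quantile normalization and cyclic loess, and moved by less than the robust SD around each gene, over ranges of -0.89 to -0.82, -0.79 to -0.77 and -0.82 to -0.80. Each gene has 1 cluster, so no other cluster could be tried and the filters could not alter a value. Their rank could change: with no filter on level ADGRF1 ranked 5, DHRS3 8 and UCN2 9 from the lowest of 11915 protein-coding genes. After quantile normalization UCN2 ranked 6 and after cyclic loess 7, in place of 4, so its neighbours in the ranking are not fixed. At entry at the 75th percentile ADGRF1 ranked 1 and UCN2 3, and DHRS3 was no longer measured. These ranks were chosen after seeing the data. Of 54 list medians under alternatives 50 moved by less than the standard error of a median, taken from the robust SD of all measured genes and the list's size. Among the others was the cyclic AMP list, at 0.0015 with quantile normalization and -0.0024 under cyclic loess. The medians of all measured genes were 0.0048 and -0.0046 there. At the 75th percentile the others were the hormone list, at -0.80 with UCN2 as the only gene left, and the retinoic acid list, at -0.20 with 4 genes. The small median of the hormone list also turned sign, to -0.020 with quantile normalization and -0.039 under cyclic loess, and that of the adhesion receptors to 0.012 with no filter. The count past 1.5-fold was 337 with no filter, 53 with both arrays at the entry level, 27 at the 75th percentile, and 6 at 2-fold, where none of the 3 genes was counted. No paired analysis was possible because there was a single array for each treatment. Differences spread more widely at low signal, which limits UCN2 and DHRS3 more than ADGRF1.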
